A study of Mus musculus with 30 samples.

Results

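Transcripts of 10 Notch pathway genes were measured by RNA-sequencing in C2C12 myotubes: the receptors Notch1, Notch2, Notch3 and Notch4, the ligands Jag1, Jag2 and Dll1, and the targets Hes1, Hey1 and Heyl. They were taken by name from the 55487 genes of the count table, and all 10 passed the filter on low counts that 15907 genes passed. The choice was made with earlier results of these data known, so shares of the 10 set beside those of all genes are descriptions. C2C12 is an immortalized wild-type mouse myoblast line that fuses into multinucleated myotubes when serum is lowered. All cells were differentiated for 4 days in low glucose DMEM with 2% horse serum and then held for 4 days, 8 days in all, in 1 of 5 media, with 6 libraries per group. The 2% HS group stayed in 2% horse serum, and the SD (serum deprived) group received the same medium without serum. The MET, LEU and MET+LEU groups were serum deprived with 100 nM metformin, 500 nM leucine or both. Every library came from a single line, and nothing in the labels says whether the 6 replicates were separate cultures, so p-values measure the spread between these libraries. The comparisons ask how the pathway's transcripts differed after withdrawal of serum and after adding metformin and leucine to it.

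Notch receptors are single-pass membrane proteins that are activated by Delta and Jagged ligands on a neighbouring cell. Ligand binding exposes the receptor to ADAM proteases and then to γ-secretase, and the freed intracellular domain enters the nucleus, binds RBPJ and switches on Hes and Hey genes, which encode repressors of the basic helix-loop-helix family. In skeletal muscle the pathway is known for holding satellite cells and myoblasts undifferentiated, and in C2C12 cultures it has been studied both in myoblasts and in the mononucleated reserve cells that remain among myotubes.

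Libraries held 12784960 to 19604103 counts. The myotube markers were high in every group, with 8 of 8 tested and a summed level of 6918 to 8664 CPM (the usual per-library count scale, corrected by TMM factors) over the 30 libraries, led by Acta1, Myh3 and Myog. Endothelial markers, checked because Notch4 and Hey genes are active in vessels, summed to 0.324 to 1.14 CPM, with 0 of 5 tested and Emcn and Kdr at 0 counts in the SD libraries. Of 6 mural cell markers, checked because Notch3 and Heyl are known from pericytes, 4 were tested, and Kcnj8 was at 0 counts while Pdgfrb, which fibroblast-like cells also express, had 300 CPM in SD (mean, n = 6). Library MET+LEU replicate 6 stood apart, with 7.64% of its counts on mitochondrial ribosomal RNA against at most 0.760% in the other libraries. It was the lowest of its group for 8 of the 10 genes, and SD replicate 1 was the highest of its group for 6, so values of the 10 genes that rest on either are given without it. Since this is bulk RNA, fewer cells of a type and less RNA per cell cannot be told apart.

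Levels were compared between genes only per kilobase of exon, as CPM divided by the length of all annotated exons of the gene joined (RPKM scale). In 2% HS, Notch2 led with 40.0 RPKM and Notch3 followed with 34.6, and their 6 libraries did not overlap. Heyl with 26.7 and Hes1 with 26.5 came next and overlapped. Dll1 had 22.8 RPKM and Notch1 14.7, while Jag2 with 7.52 and Jag1 with 7.42 overlapped each other. Hey1 stood at 3.25 RPKM, and Notch4 came last with 0.130, from 10 to 26 counts per library. Removing serum changed the order in its upper part only. In SD, Notch2 stayed first with 40.1 RPKM, but Notch3 with 17.4 and Heyl with 16.7 now sat behind Hes1 with 22.7 and Dll1 with 21.2, and each of these overlapped its neighbour in the order, as Heyl did with Notch1 at 15.4. Notch2 and Notch4 were first and last in all 5 groups. The Notch1 exon union spans 14232 bases and includes alternative exons, so its level per kilobase is a lower estimate than one per mRNA.

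**Figure D1:**
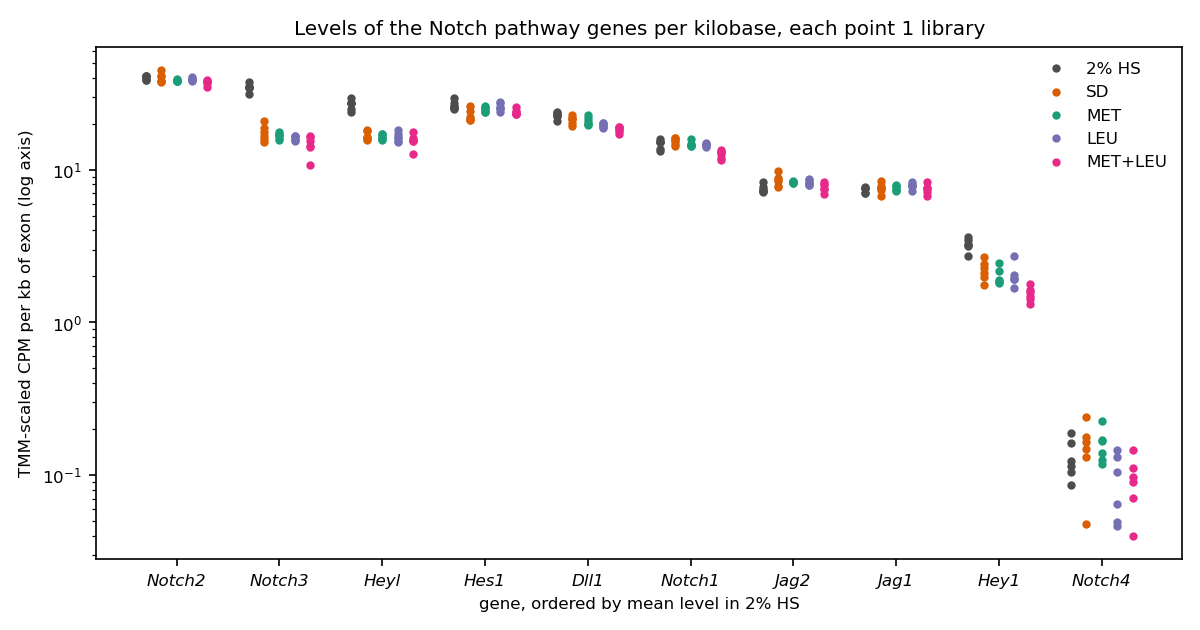
Levels of the 10 genes per kilobase of exon on a log axis, each point 1 library and each colour 1 group, ordered by the mean in 2% HS. Notch2 is highest and Notch4 lowest in every group, and the 2% HS points of Notch3 and Heyl stand above those of the other 4 groups.

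Serum withdrawal (SD vs. 2% HS) lowered Notch3, Heyl, Hey1 and Hes1 and raised Jag2. With edgeR's quasi-likelihood test and an adjusted p under 0.05, 4 of the 10 genes were lower, against 13.9% of all tested genes, and 1 was higher, against 13.9%. The groups did not overlap for 3 of the 10, Notch3, Heyl and Hey1, against 13.6% of all tested genes. The median log2 fold change of the 10 was -0.05, and that of all tested genes was 0.00.

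Among the receptors, Notch3 was the one that moved. Notch3 (ENSMUSG00000038146, chr17:32120820-32166852 of GRCm38, minus strand) encodes a receptor found in satellite cells as well as in vascular smooth muscle. Its 6 libraries had 255, 281 and 301 CPM (lowest, median, highest) in 2% HS and 123, 139 and 167 CPM in SD. Every SD library lay below every 2% HS library. The means were 279.6 ± 14.8 CPM and 141 ± 16.3 CPM (SD, n = 6 each), a log2 fold change of -0.98 (SE 0.07, edgeR adjusted p = 1.8e-11), or 0.505-fold. Notch2 (ENSMUSG00000027878, chr3:98013527-98150361, plus strand), the most abundant receptor here, had 418, 435 and 442 CPM in 2% HS and 402, 426 and 482 CPM in SD. Its libraries overlapped, and the log2 fold change was 0.00 with a 95% interval of -0.07 to 0.07 (adjusted p = 0.982). Notch1 (ENSMUSG00000026923, chr2:26457903-26516663, minus strand), the receptor most studied in myoblasts, had means of 209 ± 14.6 and 219 ± 10.9 CPM (SD, n = 6 each) and did not pass the test (log2 fold change 0.07, interval -0.01 to 0.15, adjusted p = 0.211). Notch4 (ENSMUSG00000015468, chr17:34564268-34588503, plus strand), mainly an endothelial receptor, was close to the filter at 5 to 29 counts per SD library, and its log2 fold change of 0.21 had an interval of -0.36 to 0.78. A change of that size in Notch4 was not detectable at this depth.

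The bases before the start site are shown for Notch3 and Notch2, the receptor whose transcript fell by about 1 on the log2 scale and the more abundant one with a log2 fold change of 0.00. They were taken from RefSeq's GRCm38.p6 annotation, 5′ to 3′ on the strand of the gene, and end before the first annotated base of the transcript. Capitals mark GGGCGG on either strand (CCGCCC on the other), the core of the GC box that Sp1-type factors are known to bind.
Notch3, chr17:32166891-32167140, minus strand: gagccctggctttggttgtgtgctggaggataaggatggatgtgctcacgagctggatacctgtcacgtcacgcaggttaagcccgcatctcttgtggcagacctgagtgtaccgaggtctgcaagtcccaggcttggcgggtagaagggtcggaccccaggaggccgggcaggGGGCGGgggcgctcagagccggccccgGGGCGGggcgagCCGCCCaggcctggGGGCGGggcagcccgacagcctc
Notch2, chr3:98013288-98013526, plus strand: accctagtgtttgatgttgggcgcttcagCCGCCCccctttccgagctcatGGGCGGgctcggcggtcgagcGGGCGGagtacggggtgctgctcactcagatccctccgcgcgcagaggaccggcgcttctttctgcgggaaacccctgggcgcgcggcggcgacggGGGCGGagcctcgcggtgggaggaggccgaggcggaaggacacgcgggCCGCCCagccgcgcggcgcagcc
The Notch3 window of 250 bases held 4 such matches and the Notch2 window of 239 bases held 5. The hexamer was present in 32.7% of all 32851 RefSeq windows of 250 bases before a start. The RBPJ core TGGGAA, searched on both strands, was present in 21.6% of all windows and in 0 of the 8 windows available for 7 of the 10 genes (Notch1 to Notch4, Jag1, Jag2 and Dll1), and the longer GTGGGAA, which contains it, in 5.42% of all windows. These letters are a description of the windows and no measure of binding.

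The ligands changed little. Jag2 (ENSMUSG00000002799, chr12:112907819-112929776, minus strand), a Jagged ligand expressed in muscle, had 49.5, 51.5 and 57.6 CPM in 2% HS and 53.6, 59.5 and 68.8 CPM in SD. The groups overlapped in part, and the mean rose from 52.4 ± 2.96 to 59.6 ± 5.49 CPM (SD, n = 6 each), a log2 fold change of 0.19 (SE 0.05, edgeR adjusted p = 0.00238). Dll1 (ENSMUSG00000014773, chr17:15367354-15376872, minus strand), the Delta ligand that myogenic cells present to their neighbours, was 96.1 ± 4.64 CPM in 2% HS and 89.4 ± 5.44 in SD (SD, n = 6 each). Its log2 fold change of -0.10 (SE 0.04) had an adjusted p of 0.0639 with edgeR and passed without MET+LEU replicate 6 (0.0475), SD replicate 1 (0.0220) or 2% HS replicate 2 (0.0242). It also passed with upper-quartile normalization (-0.11, 0.0349) and with GC content in the model (-0.14, 0.00211). Jag1 (ENSMUSG00000027276, chr2:137081456-137116644, minus strand), the other Jagged ligand, had means of 43.3 ± 1.64 and 44.2 ± 3.46 CPM (SD, n = 6 each) and did not pass, with an interval of -0.07 to 0.13 on the log2 scale.

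All 3 target genes fell. Heyl (ENSMUSG00000032744, chr4:123233556-123249875, plus strand), a Hey family repressor expressed in satellite cells and smooth muscle, had 122, 139 and 151 CPM in 2% HS and 79.6, 82.8 and 93.4 CPM in SD. No SD library reached a 2% HS library, and the means of 136 ± 10.1 and 85.3 ± 5.55 CPM (SD, n = 6 each) gave a log2 fold change of -0.68 (SE 0.05, edgeR adjusted p = 1.0e-13). Hey1 (ENSMUSG00000040289, chr3:8663359-8667256, minus strand), which represses myogenic transcription in myoblasts, had 8.93, 10.5 and 11.9 CPM in 2% HS and 5.74, 7.17 and 8.71 CPM in SD. These groups were also apart, by a narrow gap, with a log2 fold change of -0.56 (SE 0.11, adjusted p = 4.6e-05). Hes1 (ENSMUSG00000022528, chr16:30064384-30067796, plus strand), the general Notch target of many tissues, which other pathways also induce, had 50.7, 52.7 and 59.8 CPM in 2% HS and 43.0, 44.7 and 52.7 CPM in SD. Its groups overlapped, the fall was the smallest of the 3 (log2 fold change -0.22, SE 0.05, adjusted p = 5.3e-04), and 1 SD library lay within the 2% HS range.

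**Figure D2:**
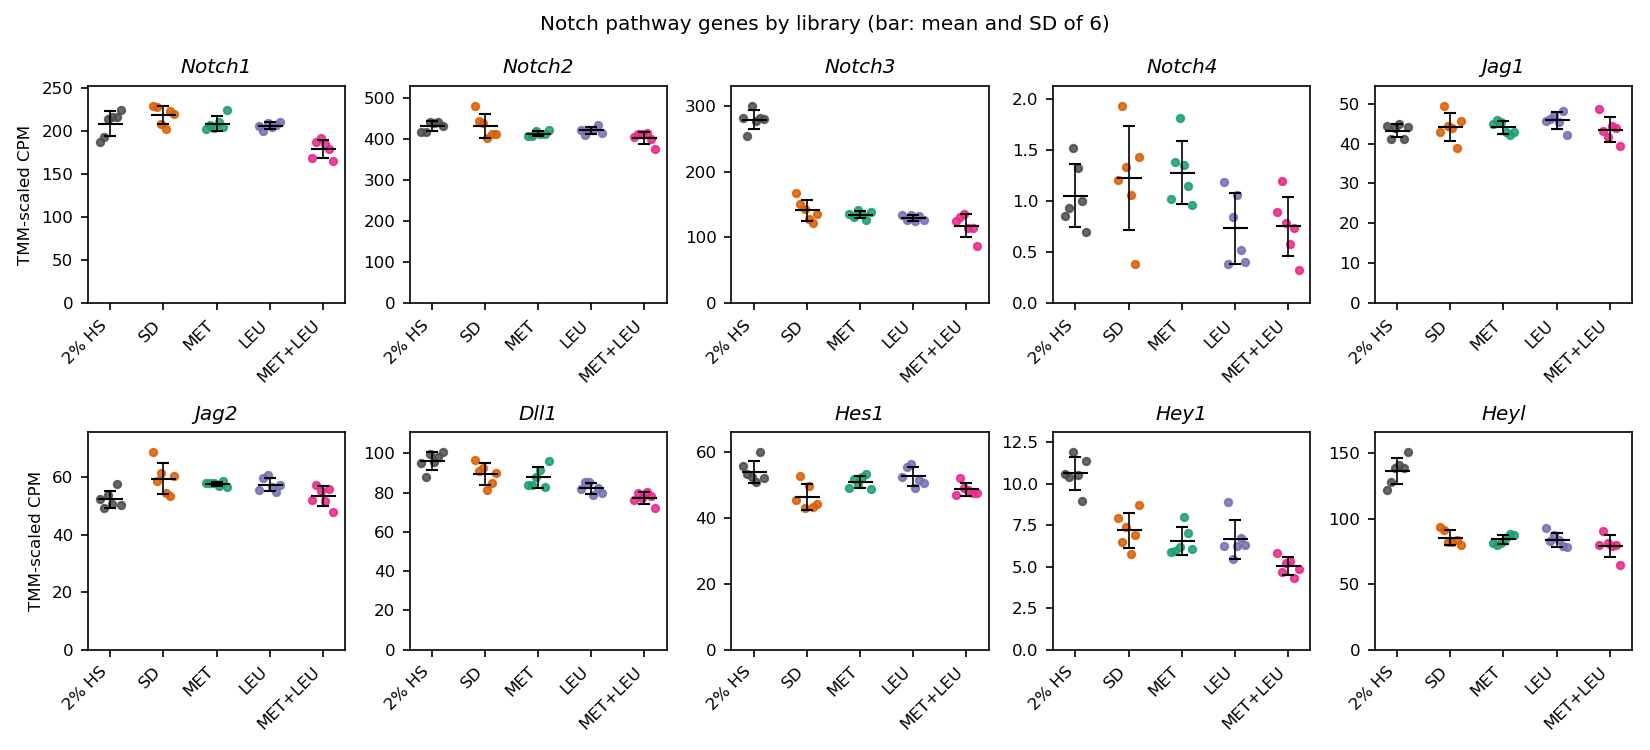
TMM-scaled CPM of each gene in the 30 libraries, 6 points per group, with the bar at the mean and whiskers of 1 SD. Notch3, Heyl and Hey1 are higher in all 6 libraries of 2% HS than in all 6 of SD, and Notch1 and Dll1 are lower in all 6 libraries of MET+LEU than in all 6 of SD.

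Markers of myoblasts and reserve cells moved in part with these genes. Their summed level was 700 to 750 CPM in 2% HS and 590 to 677 CPM in SD, and of 7 markers 6 were tested, with Pax7 (log2 fold change -0.37, edgeR adjusted p = 1.2e-10) and Myod1 (-0.28, 4.1e-04) lower and Cd34 higher (0.43, 1.0e-06). Chrdl2, the one not tested, had at most 2 counts in an SD library. Proliferation markers summed to 176 to 210 CPM in 2% HS and 175 to 243 CPM in SD, with 2 of 7 higher and 0 lower. Myotube markers summed to 7559.4 to 8124.5 CPM in 2% HS and 6917.7 to 8142.3 CPM in SD, but 2 of 8 were lower and 0 higher. Acta1 led their sum, with means of 3522.5 CPM in 2% HS and 3275.5 CPM in SD, so the sum hides falls of less abundant markers. Mural cell markers, the other known site of Notch3 and Heyl, summed to 343 to 357 CPM in 2% HS and 364 to 431 CPM in SD, with 3 of 6 higher and 1 lower. That sum was mostly Pdgfrb and Cspg4, with means of 300 and 91.0 CPM in SD, and Abcc9 was the one lower, at 5.74 CPM in 2% HS and 3.95 in SD. What part the share of undifferentiated or mural-type cells had in the falls was not tested.

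The rest of the pathway was described from 65 other genes in 7 lists, of which 55 were tested. In SD vs. 2% HS, 8 of the 55 were higher and 6 lower with edgeR at an adjusted p under 0.05, which is 25.5% of those tested, beside 13.9% higher and 13.9% lower over all tested genes. The share was near that of all genes, and the median log2 fold change was 0.04. The largest shifts were in Dtx4, a Deltex ubiquitin ligase that acts on Notch receptors, and in Lfng, the Fringe enzyme that adds sugars to them. Dtx4 fell from 117 ± 3.21 to 59.6 ± 4.90 CPM (SD, n = 6 each), with a log2 fold change of -0.98 (SE 0.06, adjusted p = 6.3e-17) and no overlap. Lfng, a low transcript, rose from 3.03 ± 0.388 to 5.16 ± 0.572 CPM, with a log2 fold change of 0.76 (SE 0.13, adjusted p = 1.1e-05), also without overlap. Of the 5 glycosylation genes tested, 3 rose, Rfng (0.25) and Gxylt1 (0.16) beside Lfng, and 0 fell.

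Among genes of receptor cleavage, 3 fell by small amounts. The γ-secretase subunits Psen2 (log2 fold change -0.20, edgeR adjusted p = 0.0231) and Psenen (-0.18, 0.0273) and the protease Adam17 (-0.11, 0.0375) fell. In the nuclear complex, Rbpj, the DNA-binding partner of the cleaved receptor, fell from 70.9 ± 4.52 to 63.0 ± 4.85 CPM (SD, n = 6 each; log2 fold change -0.17, adjusted p = 0.00719), and the acetyltransferase Kat2b rose (0.14, 0.0176). Of 14 corepressors only the deacetylase Hdac1 passed (0.29, 6.3e-05). Of the remaining Hes and Hey family and reported targets, Hes6, a Hes gene that is known for promoting rather than blocking differentiation, fell (-0.21, 0.0204), and Col5a1, a collagen reported as a Notch target in satellite cells, rose by 0.37 (3.6e-09). Hes5, Dlk1 and Calcr were at 0 counts in every SD library, and Dll3, Dll4, Dner, Hes7 and Hey2 had at most 8 counts in one.

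**Figure D3:**
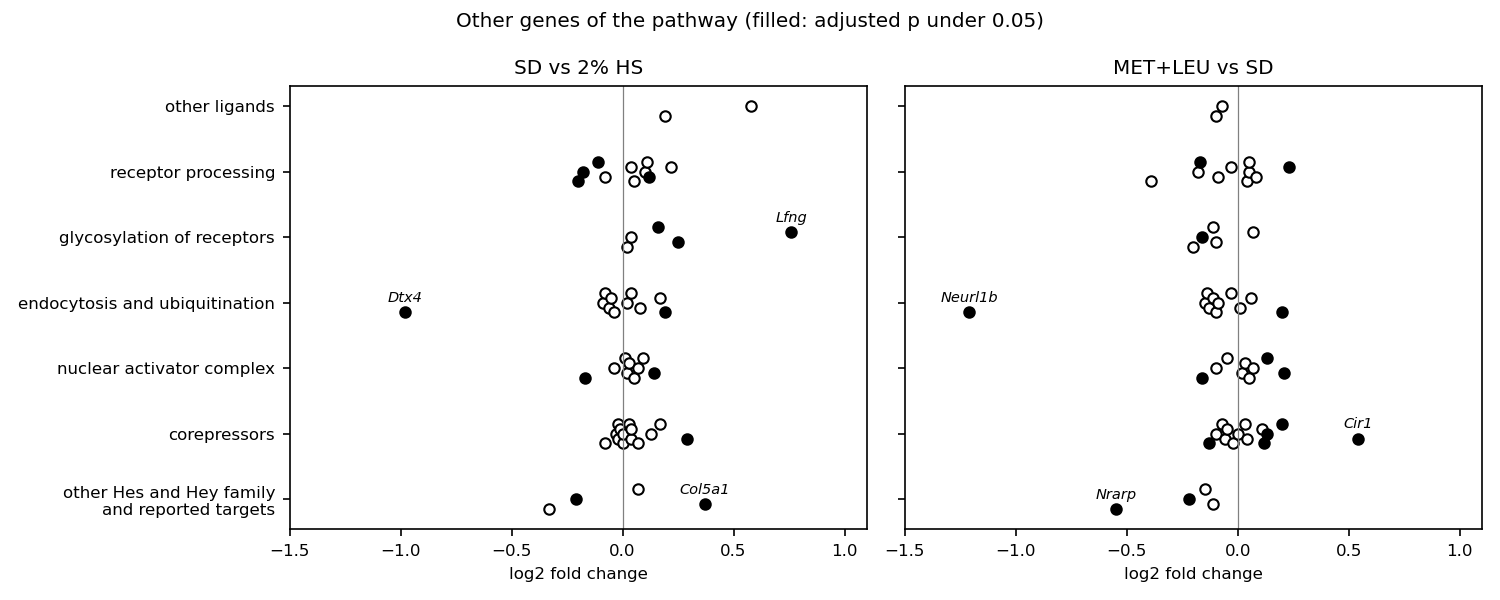
Log2 fold changes of the 55 other pathway genes tested, grouped by role, for serum withdrawal (left) and combined treatment (right), with filled points for an adjusted p under 0.05 and called genes beyond 0.3 named. Dtx4 (-0.98) and Lfng (0.76) stand out in the first comparison and Neurl1b (-1.21), Nrarp (-0.55) and Cir1 (0.54) in the second, while most genes lie within 0.25 of 0.

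Metformin alone and leucine alone moved none of the 10 genes past the threshold. In MET vs. SD, edgeR called 0 of the 10 against 0.157% of all tested genes, with 1 at an unadjusted p under 0.05, and DESeq2 called 0 of the 8 to which it gave an adjusted p. In LEU vs. SD, edgeR called 0 of the 10 against 0.553% of all tested genes, with 4 at an unadjusted p under 0.05 (Notch1, Notch4, Dll1 and Hes1), and DESeq2 called 1 of the 9 with an adjusted p. That gene was Hes1, which had 48.9, 51.9 and 56.2 CPM in LEU and a log2 fold change of 0.18 (SE 0.05, edgeR adjusted p = 0.0783), and edgeR called it too without MET+LEU replicate 6 (0.0272) or SD replicate 2 (0.0228). Notch3 was 135 ± 5.67 CPM in MET and 130 ± 4.10 CPM in LEU (SD, n = 6 each), with intervals against SD of -0.22 to 0.09 and -0.28 to 0.03 on the log2 scale. Heyl was 84.0 ± 3.49 CPM in MET and 83.9 ± 5.36 CPM in LEU, with intervals against SD of -0.13 to 0.09 and -0.14 to 0.08. Thus Notch3 and Heyl stayed below every 2% HS library in all 6 libraries of each single treatment.

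Of the other pathway genes, edgeR called 1 with leucine alone. Neurl1b, a Neuralized ubiquitin ligase that acts in ligand endocytosis, was 9.21 ± 1.84 CPM in SD and 8.25 ± 1.13 CPM with metformin (SD, n = 6 each). With leucine it was 6.08 ± 0.402 CPM, and with both agents 3.94 ± 0.729 CPM. All LEU libraries lay below all SD libraries (log2 fold change -0.60, SE 0.11, edgeR adjusted p = 0.00427). It was the 1 gene of the 55 that edgeR called in LEU vs. SD, where DESeq2 called 2 and edgeR without MET+LEU replicate 6 called 3.

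Combined treatment (MET+LEU vs. SD) lowered 6 of the 10 genes, Notch1, Dll1, Hey1, Notch3, Jag2 and Notch2, against 7.80% of all tested genes lower with edgeR, and raised 0, against 10.6% higher. The groups did not overlap for 2 of the 10, Notch1 and Dll1, against 5.34% of all tested genes. The median log2 fold change of the 10 was -0.19, beside -0.01 for all tested genes, and DESeq2 called 6. A model of only SD and MET+LEU called 3 (Notch1, Dll1 and Hey1), and 1345 of all 15907 tested genes against 2931 in the main model. Leaving out SD replicate 1 gave 3 of the 10 and 2258 of all genes, and GC content in the model gave 4 and 2526. SD is the reference here and also the treated side of SD vs. 2% HS, so the comparisons share its 6 libraries.

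Notch1 showed the firmest difference. It had 203, 222 and 230 CPM (lowest, median and highest) in SD and 165, 182 and 192 CPM in MET+LEU, and every MET+LEU library lay below every SD library. The means of 219 ± 10.9 and 179.7 ± 10.7 CPM (SD, n = 6 each) gave a log2 fold change of -0.29 (SE 0.04, edgeR adjusted p = 2.0e-06), and no library left out ended the call. For the other receptors the shift was smaller or less even. Notch3 had 123, 139 and 167 CPM in SD and 86.3, 120 and 135 CPM in MET+LEU, a log2 fold change of -0.26 (SE 0.08, adjusted p = 0.0155). Its groups overlapped, the value was -0.19 (0.0224) without MET+LEU replicate 6, and the call was lost without SD replicate 1 (-0.21, 0.0589). Notch2 had 402, 426 and 482 CPM in SD and 377, 408 and 414 CPM in MET+LEU, a log2 fold change of -0.10 (adjusted p = 0.0357) that lost its call without MET+LEU replicate 6 (0.0881) or SD replicate 1 (0.170), replicate 2 (0.0832) or replicate 3 (0.0664). Notch4 had 5 to 29 counts per library in SD and 4 to 21 in MET+LEU, with a log2 fold change of -0.68 that did not pass (interval -1.28 to -0.08, adjusted p = 0.103) except without SD replicate 5 (0.0288) or MET+LEU replicate 2 (0.0463).

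Among the ligands, Dll1 fell without overlap. It had 81.5, 90.5 and 96.8 CPM in SD and 72.0, 77.8 and 80.2 CPM in MET+LEU, and the highest MET+LEU library was below the lowest SD library. The log2 fold change was -0.21 (SE 0.04, edgeR adjusted p = 3.9e-04). Jag2 fell from 59.6 ± 5.49 to 53.4 ± 3.48 CPM (SD, n = 6 each; log2 fold change -0.16, SE 0.05, adjusted p = 0.0174), which brought it near its 2% HS level of 52.4 CPM. The Jag2 call was lost without SD replicate 1 (-0.11, 0.102) and when GC content was taken into the model (-0.03, 0.710). Fold changes in this comparison ran with GC content across genes (r = -0.24 over 15881 genes), and Jag2 at 61.9% GC and Notch3 at 59.6% are far above the median of 49.0%. With GC content in the model Notch1 (-0.21), Dll1 (-0.16), Notch3 (-0.16) and Hey1 (-0.49) kept their calls, and Notch2 lost its call (-0.06, 0.101). Jag1, at 48.8% GC, did not pass (log2 fold change -0.02, interval -0.12 to 0.08).

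The 3 targets, which had all fallen without serum, did not move together here. Hey1 had 5.74, 7.17 and 8.71 CPM in SD and 4.32, 5.03 and 5.80 CPM in MET+LEU, so that the groups touched at their edges. It fell by 0.51 on the log2 scale (SE 0.12, edgeR adjusted p = 0.00121), with or without MET+LEU replicate 6. Heyl was 79.1 ± 8.12 CPM in MET+LEU beside 85.3 ± 5.55 in SD (SD, n = 6 each), and its log2 fold change of -0.11 did not pass (adjusted p = 0.175) except without MET+LEU replicate 2 (-0.15, 0.0469). Without MET+LEU replicate 6, the lowest of its group for Heyl at 64.9 CPM, the Heyl value was -0.06 (edgeR adjusted p = 0.447). Hes1 was 48.6 ± 1.91 CPM beside 46.3 ± 3.95, a log2 fold change of 0.07 with an interval of -0.03 to 0.17 (adjusted p = 0.364).

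Markers of dividing cells moved with this comparison. The proliferation list summed to 175 to 243 CPM in SD and 127 to 164 CPM in MET+LEU, and 7 of 7 were lower, led in abundance by Mki67 (log2 fold change -0.35, edgeR adjusted p = 0.0263), Top2a (-0.64, 6.3e-07) and Ccna2 (-0.67, 3.7e-08). The proliferation sum of MET+LEU replicate 6 was the highest of its group at 164 CPM, and its Notch3 the lowest. In LEU vs. SD, 4 of the 7 proliferation markers were lower, and edgeR called 0 of the 10 Notch genes. Log2 fold changes there were -0.12 for Dll1 (interval -0.21 to -0.03), -0.08 for Notch1 (-0.16 to 0.00) and -0.11 for Hey1 (-0.34 to 0.11). Myoblast and reserve cell markers summed to 590 to 677 CPM in SD and 555 to 654 CPM in MET+LEU with 0 of 6 called, and of 8 myotube markers 3 were higher (Myh3, Myh8 and Tnnt3) and 1 lower (Mymx). MET+LEU replicate 6 was the highest of its group for Myh3 (2050 CPM, group median 1307) and Tnnt3 (1243 CPM, median 743). The part of dividing cells in the lower Notch1, Dll1 and Hey1 was not tested.

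The other genes of the pathway split evenly in MET+LEU vs. SD, with 8 of 55 higher and 7 lower, 27.3% of those tested, beside 10.6% higher and 7.80% lower over all tested genes. Without MET+LEU replicate 6 there were 10 calls, and in a model of only the 2 groups 7. Neurl1b fell most (log2 fold change -1.21, SE 0.12, edgeR adjusted p = 1.7e-09), with no MET+LEU library reaching an SD library, and it was lower than in MET (-1.06, 5.7e-07) and than in LEU (-0.62, 0.00255). Nrarp, a target gene whose product feeds back on the receptor's nuclear complex, fell from 3.29 ± 0.688 to 2.25 ± 0.562 CPM (SD, n = 6 each; log2 fold change -0.55, adjusted p = 0.0207), and 0.0502 without MET+LEU replicate 6. Similar levels of Nrarp were seen in MET (2.44 ± 0.622 CPM) and LEU (2.12 ± 0.485 CPM), where edgeR did not call it against SD. Cir1, a corepressor bound to RBPJ, rose from 21.6 ± 2.27 to 31.5 ± 5.69 CPM without overlap (0.54, adjusted p = 3.1e-05). MET+LEU replicate 6 had the highest Cir1 of its group at 42.6 CPM, beside a group median of 29.7 CPM, and so enlarged this rise.

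The remaining shifts were small. Snw1 (log2 fold change 0.21, edgeR adjusted p = 6.3e-04) and Kat2b (0.13, 0.0359) of the activator complex rose and Kat2a (-0.16, 0.0407) fell. The corepressors Hdac2 (0.20, 0.00141) and Spen (0.12, 0.0198) rose and Tle3 (-0.13, 0.00904), of the Groucho family, fell. Fbxw7, the ubiquitin ligase that removes the active receptor domain, rose (0.20, 3.1e-04), as did Psenen (0.23, 0.00586), and the protease Furin (-0.17, 0.00481), the glycosyltransferase Pofut1 (-0.16, 0.0282) and Col5a1 (-0.22, 2.5e-04) fell. MET+LEU replicate 6 was the lowest of its group for each gene named here as falling. It had 149 CPM of Furin (group median 185) and 1026 CPM of Col5a1 (median 1317). Without that library edgeR called 4 of the 55 lower in place of 7, and 6 higher in place of 8. Values of single genes without it are not given here.

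**Figure D4:**
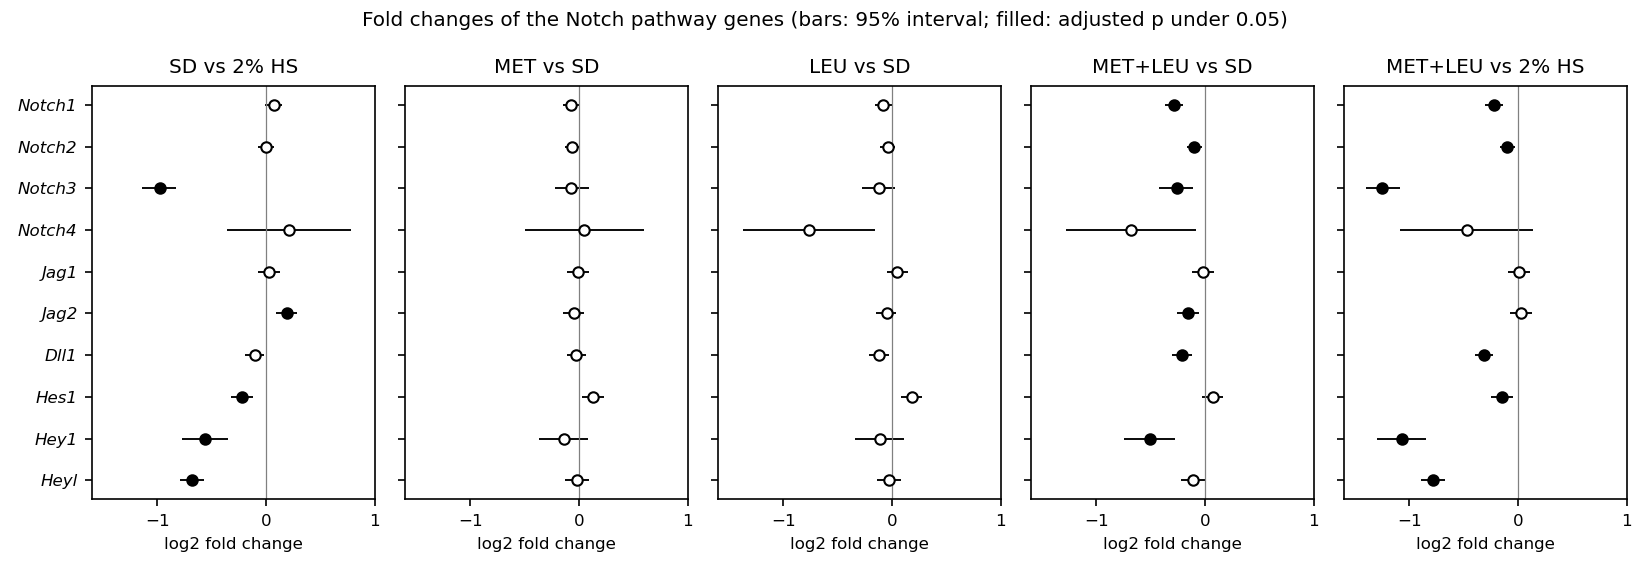
Log2 fold changes of the 10 genes in 5 comparisons, with bars for the 95% interval and filled points for an adjusted p under 0.05. No point is filled for MET or LEU alone, Notch3 lies at -0.98 in SD vs. 2% HS and at -1.25 in MET+LEU vs. 2% HS, and Notch4 has the widest bars.

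Set against 2% HS, MET+LEU showed no gene of the 10 higher and 7 lower. With edgeR, 7 of the 10 were lower, against 20.3% of all tested genes, and 0 higher, against 22.1%, and DESeq2 also called 7.  Notch3 had a mean of 118 ± 17.7 CPM in MET+LEU beside 279.6 ± 14.8 in 2% HS (SD, n = 6 each), a log2 fold change of -1.25 (SE 0.08, edgeR adjusted p = 1.0e-13) that was -1.17 without MET+LEU replicate 6. Hey1 was lower by a similar amount, at 5.03 ± 0.522 beside 10.6 ± 1.02 CPM (log2 fold change -1.07, SE 0.11, adjusted p = 5.2e-11). Heyl (-0.78, 1.0e-15), Dll1 (-0.31, 5.3e-08), Notch1 (-0.22, 1.9e-05), Hes1 (-0.15, 0.0123) and Notch2 (-0.10, 0.0184) were lower by less. The Hes1 call was lost without 2% HS replicate 5 (-0.12, 0.0546). Jag1 (0.01) and Jag2 (0.03) did not pass, with 95% intervals of -0.09 to 0.11 and -0.07 to 0.13. Of the 5 genes that had changed in SD vs. 2% HS, Jag2 alone was not called here, and with GC content in the model it was (0.11, 0.0209).

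The combination was also compared with each agent. MET+LEU vs. MET had 3 of the 10 called with edgeR against 8.69% of all tested genes: Notch1 (log2 fold change -0.22, adjusted p = 5.0e-04), Dll1 (-0.18, 0.00538) and Hey1 (-0.37, 0.0364), all lower. MET+LEU vs. LEU had 2 of the 10 called against 6.28%: Notch1 (-0.20, 0.00190) and Hey1 (-0.40, 0.0305), both lower. Both Hey1 calls were lost without MET+LEU replicate 6 (0.0657 and 0.0581), and without any of 4 other libraries in each comparison. The interaction of the agents, the part of the combined change that the sum of the single ones does not give, was called for 0 of the 10 with edgeR, against 0.0503% of all tested genes, with 2 at an unadjusted p under 0.05. DESeq2 gave an adjusted p for only 2 of the 10, of which it called 0, so it could not call the other 8, Hes1 among them. The 2 under an unadjusted 0.05 were Notch1 (log2 -0.13, edgeR adjusted p = 0.465) and Hes1 (-0.24, 0.249), whose departure from a sum of single effects did not pass.

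The genes whose log2 CPM ran most like each member over the 30 libraries were sought by Pearson's r, at 0.8 or more, among genes whose log2 CPM averaged 3 or more. The points share groups and libraries, so r describes these libraries and carries no test. For Heyl the closest of the genes searched were Notch3 and the collagen receptor gene Mrc2 (both r = 0.97), and for Notch3 they were Mrc2 (0.99) and Gdpd5 (0.98). All 6 libraries of 2% HS lie above every other library for Notch3 and for Heyl. After subtracting group means, Notch3 and Heyl still had r = 0.69, and 0.50 without MET+LEU replicate 6. Notch1 ran most like Srebf2 (0.87) and Tet3 (0.86), Notch2 like Tmem161a and Ncln (both 0.90), Dll1 like Vars (0.89) and Nup188 (0.87), Jag2 like Ubtd1 and Cops8 (both 0.87) and Hey1 like Pkp1 (0.87) and Gm49502 (0.86). After subtracting group means, Hey1 had r = 0.31 with Pkp1 and 0.42 with Gm49502. Its r with Notch3 went from 0.83 to 0.12. The pairs named for the other members kept 0.57 to 0.89. No gene reached 0.8 for Notch4, Jag1 or Hes1.

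**Figure D5:**
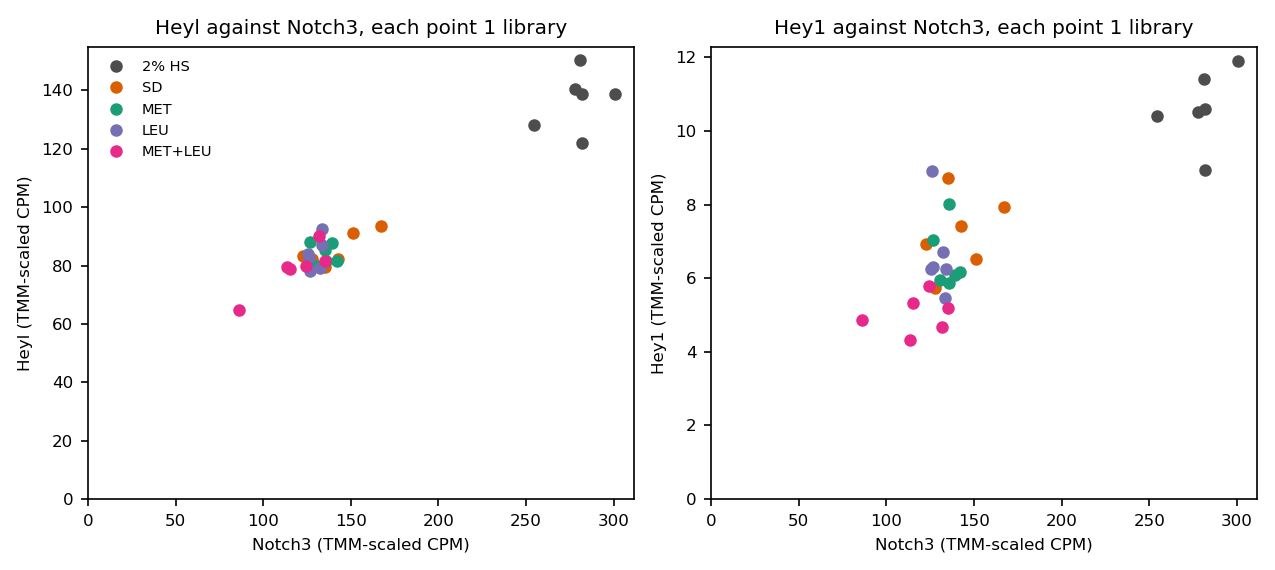
Heyl and Hey1 against Notch3, in TMM-scaled CPM, each point 1 library. The 6 libraries of 2% HS lie apart at 255 to 301 CPM of Notch3, and MET+LEU replicate 6 is the lowest point for Notch3 (86.3 CPM) and for Heyl (64.9 CPM).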

How the data were processed

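RNA-sequencing was analysed for 30 C2C12 libraries in 5 groups of 6, grouped by their sample labels. The authors prepared ribosomal RNA-depleted stranded libraries and deposited raw gene counts, whole numbers without normalization. The submitters' processing notes name cutadapt 1.16, STAR 2.7.6a, featureCounts 1.6.3, DESeq2 1.30.1 and the build GRCm38. The annotation release and strand setting are not given in the sources used here. Without a known strand setting, reads of Notch1 and its antisense genes Gm13568 and 0610009E02Rik may be split. The same holds for Dll1 and A930024N18Rik, which covers 20.55% of the Dll1 exon bases, and for Notch3 and Gm17276 (6.03%). Over all libraries A930024N18Rik had 0 counts and Gm17276 had 1. Notch2 and Gm42820 overlap on the same strand, so their reads may be split under any strand setting. Of 55487 identifiers, 55227 matched GENCODE M21 (GRCm38), which gave symbols, coordinates, exon lengths and GC content. The 260 others held 0.00434% of counts.

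Counts were analysed in R 4.3.3 with edgeR 4.0.16: filterByExpr (minimum count 10, minimum total 15; 15907 genes kept), TMM scaling, 1 model over all 30 libraries with a mean per group, robust glmQLFit and the quasi-likelihood F test for 8 contrasts. p-values were adjusted by Benjamini-Hochberg over all genes tested, and a call is an adjusted p under 0.05. A rise or fall is relative to the TMM scale. Depth was 12784960 to 19604103 counts per library, which limits precision for Notch4 most. The test was tested on simulated data. No 2 libraries of the same group agreed within counting noise.

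The 10 genes and all lists were chosen with earlier results of these data known. From the lists, the text names up to 4 genes past the threshold by smallest adjusted p in each of SD vs. 2% HS and MET+LEU vs. SD, and from marker lists the 3 of highest mean CPM. Cd34, Pax7, Myod1, Mymx, Myh8, Tnnt3, Pdgfrb, genes at or near 0 counts and genes called in other comparisons were named after their values were seen, beside the counts they belong to, and GGGCGG was chosen then too. Alternatives were a replicate block, the Wald test of DESeq2 1.42.0, scaling by upper quartiles or DESeq2's size factors, a filter at more than 5 counts in total, fits to the compared groups alone and the removal of each library in turn. A GC content offset was added after the data were seen. The result of 1 listed gene is not reported here.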

Additional observations from a re-analysis of the deposited data

Results flagged for a closer look

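In 3 of 50 checks of a gene within a group of 6 libraries, the end library stood further from its nearest neighbour than Dixon's test allows at 95%, where chance gives 2.5. Notch1 in MET replicate 6 was 225.0 CPM beside 203 to 211 CPM in the other 5 MET libraries. Notch2 in MET+LEU replicate 6 was 377 CPM beside 400.3 to 414 CPM in the others, and this library is the one with 7.64% of its counts on mitochondrial ribosomal RNA. Hey1 in LEU replicate 2 was 8.92 CPM beside 5.46 to 6.71 CPM, and without it MET+LEU vs. LEU no longer called Hey1 (log2 fold change -0.30, edgeR adjusted p = 0.115).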

How the results depend on the processing

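Counts of called genes kept within 1.5 times for the interaction, for MET vs. SD and SD vs. 2% HS and for MET+LEU against MET or 2% HS under all settings other than leaving out a library, although DESeq2 gave an adjusted p for only 2 of the 10 in the interaction and 8 in MET vs. SD. For LEU vs. SD, 1 of the 10 was called in place of 0 by the DESeq2 Wald test and with the GC content offset (Hes1 in both), and 0 to 1 when a library was left out. For MET+LEU vs. SD the model of only the groups compared called 3 in place of 6 (Notch1, Dll1 and Hey1), and leaving out 1 library gave 3 to 8, with 3 without SD replicate 1. For MET+LEU vs. LEU the model of only the groups compared called 1 in place of 2, and leaving out a library 1 to 2. MET+LEU vs. MET gave 2 to 4 when a library was left out. Jag1, which was called in no comparison, changed sign in MET+LEU vs. 2% HS, from 0.01 to -0.02 with upper-quartile normalization and with the GC content offset and to between -0.03 and 0.03 when a library was left out, and in MET+LEU vs. SD it lay between -0.06 and 0.01. The cause of these changes was not tested. The smaller model called 1345 genes of all tested in MET+LEU vs. SD against 2931, and the replicate block 3113. Libraries of the same number showed no strong shared deviation (r over 0.1 in 2 of 60 pairs), and the labels do not say whether the numbers pair the samples. The replicate block called 5, 0, 0, 6, 7, 3, 2 and 0 of the 10 in the 8 comparisons, the same counts as without it. Notch4 at 4 to 29 counts per library is limited by depth.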
